A study of Mus musculus with 18 samples.

Results

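The comparison described here set 3 libraries of mouse 3T3-L1 adipocytes labelled as overexpressing Irf3 (Irf3_2D) against 3 libraries of the same cells given an EGFP vector. These 6 libraries, chosen by their sample titles, are 6 of the 18 in the study, and 13931 of the 27473 gene models in the count table had enough reads to be tested in them. 3T3-L1 is an established mouse fibroblast line that can be turned into fat cells in culture. The cells of both groups had been differentiated into mature adipocytes at passage 15 and were then exposed for 6 days to lentivirus carrying the Irf3 construct or green fluorescent protein. Neither the meaning of 2D nor the promoter of the constructs is given in the labels. The other 12 libraries came from cells with a hairpin RNA that targets Irf3 (shIrf3) or the control sequence luciferase (shLuc), either without lipopolysaccharide (LPS) or with LPS for another 6 days. They are used below only to read the same gene models in libraries that share none with the overexpression arm. No label ties the 3 libraries of a group to separate cultures, so the p-values measure only how far these libraries spread, and that spread may be technical.

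IRF3 is a transcription factor that rests in the cytoplasm until Toll-like receptors 3 and 4 or sensors of nucleic acid in the cytosol signal through the kinase TBK1. Phosphorylated IRF3 pairs, enters the nucleus and switches on the interferon beta gene and a first wave of interferon-stimulated genes, and secreted interferon then induces a wider set. Forms of IRF3 in which the phosphorylated serines are replaced by acidic residues act without a stimulus, and the labels do not say whether 2D is such a form. In fat cells IRF3 has been linked to inflammation and to reduced thermogenic and insulin-dependent gene expression. The table lists UCSC known-gene identifiers and no symbols, and 0 of its identifiers could be matched to the gene name tables used here. The gene models are therefore described by identifier, position on mouse build mm9, structure and level. For the same reason the level of Irf3 itself, the adipocyte markers and lists of interferon, inflammatory, lipid and thermogenic genes are not reported here.

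Irf3_2D replicate 2 stood apart from its group, and EGFP replicate 1 did so on the first principal component. Irf3_2D replicate 2 scored -46.7 on the second principal component (33.0% of the variance), where the other 5 scored from -6.71 to 16.03. Chi-square values per degree of freedom, which compare the counts of a pair of libraries and are near 1 for sampling noise alone, were 111.8 and 91.7 between it and Irf3_2D replicates 1 and 3. They were 10.8 between Irf3_2D replicates 1 and 3. For EGFP replicate 1 they were 24.5 and 34.2 against EGFP replicates 2 and 3, which had 24.3 between them, so they did not set it apart. On the first component, with 42.0% of the variance, EGFP replicate 1 lay at -3.36, between the other EGFP libraries at -31.0 and -33.1 and the Irf3_2D libraries at 12.5 to 29.9. Total counts ran from 22143302 (Irf3_2D replicate 2) to 31434168 (Irf3_2D replicate 1), and chromosome M held 2.1703% to 3.16% of the counts in all 6. Results are given with all 6 libraries, without Irf3_2D replicate 2 and, where it moved them, without EGFP replicate 1.

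Few gene models passed the test, and most of those that did had changed at least 2-fold. In edgeR's quasi-likelihood test, 113 gene models were higher (0.811% of those tested) and 89 were lower (0.639%) at a Benjamini-Hochberg adjusted p under 0.05. Of the risen gene models 95 changed at least 2-fold, with log2 fold changes from 0.58 to 4.57 and a median of 1.76, and of the fallen ones 60 did, with log2 fold changes from -2.82 to -0.62 and a median of -1.24. The median over all tested gene models was 0.02. The 3 Irf3_2D values lay outside the range of the 3 EGFP values for all 113 and all 89. These were called on the same values, so the lack of overlap follows largely from the call. Over all tested gene models the Irf3_2D range lay wholly above the EGFP range for 8.24% and wholly below it for 8.43%. The risen gene models were expressed at a low level with the EGFP vector, with a median of 11.2 CPM (read counts scaled to a common library size with TMM factors), against 30.6 CPM for the fallen ones and 20.1 CPM for all tested.

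Read library by library, the risen gene models had median levels of 14.6, 9.68 and 8.80 CPM in EGFP replicates 1, 2 and 3, and of 41.9, 40.7 and 31.4 CPM in Irf3_2D replicates 1, 2 and 3. As a difference from the EGFP mean on the log2 scale, the median risen gene model stood at 0.54, -0.27 and -0.23 in the EGFP libraries and at 1.86, 1.96 and 1.63 in the Irf3_2D libraries. Irf3_2D replicate 2 entered the fit that chose these gene models, so its level among them is a description only. Among the called gene models EGFP replicate 1 was the EGFP library closest to the Irf3_2D libraries, though its medians stayed nearer to those of its own group. It held the highest EGFP value for 100 of the 113 risen gene models (88.5%), against 34.9% of all those tested, and the lowest EGFP value for 76 of the 89 fallen ones (85.4%, against 33.3%). The fallen gene models had median levels of 24.7, 34.7 and 31.0 CPM in the EGFP libraries and of 10.98, 14.3 and 11.5 CPM in the Irf3_2D libraries. Among the risen gene models the median SD of log2 CPM was 0.481 over the EGFP libraries and 0.218 over the Irf3_2D libraries, where all tested gene models had 0.165 and 0.234. The risen set thus had a wider spread than usual among the EGFP libraries and an ordinary one among the Irf3_2D libraries. It was called on these same values, so its spread is a description only. Its lower level with EGFP, a median of 11.2 CPM against 20.1 CPM for all tested, was not allowed for.

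**Figure D1:**
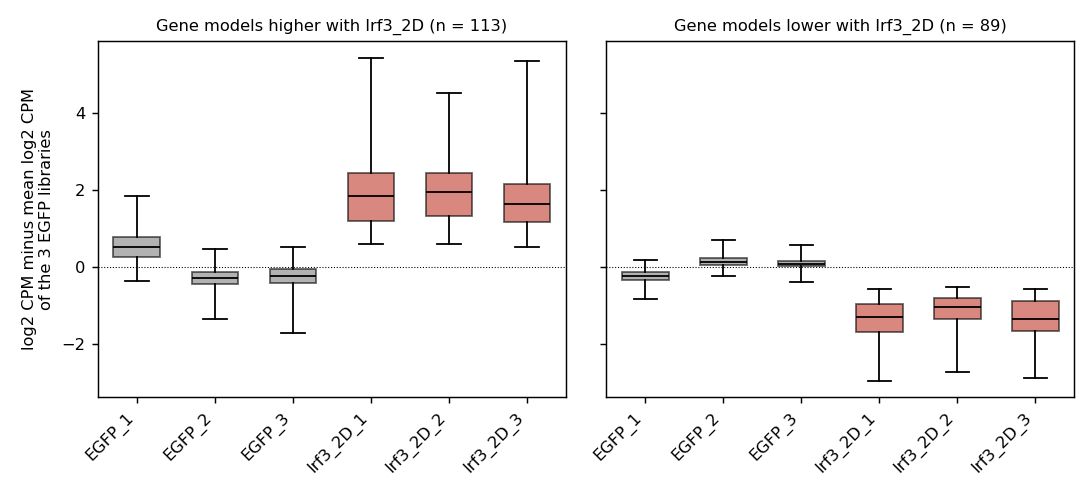
Log2 CPM of each called gene model minus its mean over the 3 EGFP libraries (y axis, log2 units), for each of the 6 libraries (x axis), with the 113 gene models higher with Irf3_2D on the left and the 89 lower ones on the right. Boxes span the quartiles with the median as a line and whiskers the lowest and highest gene model. The 3 Irf3_2D medians lie between 1.63 and 1.96 on the left, and EGFP replicate 1 has a median of 0.54, above the other 2 EGFP libraries.

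Leaving out Irf3_2D replicate 2 raised the number of gene models that passed. Without it, 473 gene models were higher (3.32% of 14226 tested) and 548 lower (3.85%), with medians of 0.65 and -0.64 on the log2 scale. Of the 113 risen gene models 73 were still called. The 40 that were not had log2 fold changes from 1.11 to 4.80, with edgeR adjusted p-values from 0.0541 to 0.185. Among these 40 the median was 2.05 without the library and 2.14 with it. Their positive sign was all but fixed, because the groups did not overlap for any of the 113. Of the 89 fallen gene models 88 were still called, and the remaining one stood at -2.53 (edgeR adjusted p = 0.0514). Without EGFP replicate 1 there were 170 higher (1.20% of 14216 tested) and 105 lower (0.739%), which included 98 of the 113 and 74 of the 89.

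The gene models that were called only without Irf3_2D replicate 2 were smaller in effect. Of 398 such risen gene models that were also tested with all 6 libraries, Irf3_2D replicate 2 lay above all 3 EGFP libraries for 139, within their range for 99 and below all of them for 160. Their median difference from the EGFP mean was 0.67 in Irf3_2D replicate 1, 0.56 in replicate 3 and -0.03 in replicate 2, on the log2 scale. Of 458 such fallen gene models, replicate 2 lay below all EGFP libraries for 246, within their range for 173 and above them for 39, with medians of -0.63, -0.53 and -0.21 in replicates 1, 3 and 2. Since these gene models were chosen by leaving replicate 2 out, its lower agreement follows in part from that choice.

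The counts of calls fell, rather than rose, when any of the other 4 libraries was left out. Leaving out Irf3_2D replicate 1 gave 4 higher and 9 lower, Irf3_2D replicate 3 gave 41 and 14, and EGFP replicate 2 gave 1 and 6. Without EGFP replicate 3 edgeR called 0 higher and 5 lower. An unadjusted edgeR p under 0.05 was then found for 1153 of 14227 gene models, against 1512 of 13931 with all 6 libraries.

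Among gene models with at least 5 CPM in the higher group that were called with all 6 libraries and without Irf3_2D replicate 2, the 2 with the smallest adjusted p in each direction are given in full. The risen gene model uc008jvm.2 lies at chr2:62433850-62484312 on the minus strand, with 16 exons that sum to 7923 bases. It stood at 5.53, 2.13 and 2.60 CPM in the EGFP libraries and at 23.8, 22.8 and 21.3 CPM in the Irf3_2D libraries. The 3 Irf3_2D values were within 3 CPM of each other, and the highest EGFP value was that of replicate 1. The log2 fold change was 2.73 ± 0.32 (SE, edgeR adjusted p = 0.0122), and it was 2.72 (edgeR adjusted p = 0.0132) without Irf3_2D replicate 2 and 3.26 (edgeR adjusted p = 7.81e-05) without EGFP replicate 1. The call ended without EGFP replicate 2, at 2.46 (edgeR adjusted p = 0.0763), and without EGFP replicate 3, at 2.57 (edgeR adjusted p = 0.0722). The same gene model stood at 1.94, 3.48 and 2.78 CPM in the shLuc libraries and at 1.79, 3.01 and 2.22 CPM in the shIrf3 libraries, which overlapped, with a log2 fold change of -0.21 (edgeR adjusted p = 0.644). Its change with LPS in the shLuc cells was 0.38 (edgeR adjusted p = 0.334), which did not pass.

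The risen gene model uc007wgk.1 lies at chr15:74825307-74828331 on the minus strand, with 4 exons and 872 bases. It stood at 26.2, 16.4 and 24.0 CPM in the EGFP libraries and at 76.7, 80.8 and 59.0 CPM in the Irf3_2D libraries. The log2 fold change was 1.70 ± 0.20 (SE, edgeR adjusted p = 0.0122), with 1.61 (edgeR adjusted p = 0.00269) without Irf3_2D replicate 2. The call ended without EGFP replicate 2, at 1.51 (edgeR adjusted p = 0.0706), and without EGFP replicate 3, at 1.75 (edgeR adjusted p = 0.0722). Unlike uc008jvm.2 it also rose with the Irf3 hairpin, by 0.57 on the log2 scale (edgeR adjusted p = 0.0110), and by 0.70 (edgeR adjusted p = 0.00266) where both groups had LPS.

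The fallen gene model uc009kic.1 lies at chr7:147949731-147960876 on the plus strand, with 9 exons and 1736 bases. It stood at 308.8, 419.6 and 439.7 CPM in the EGFP libraries and at 82.1, 88.5 and 84.2 CPM in the Irf3_2D libraries. Every Irf3_2D library was thus more than 3-fold below the lowest EGFP library, which was replicate 1. The log2 fold change was -2.20 ± 0.16 (SE, edgeR adjusted p = 0.00173), with -2.23 (edgeR adjusted p = 5.65e-06) without Irf3_2D replicate 2. In the knockdown arm it stood at 560.3, 512.5 and 470.8 CPM with shLuc and at 66.1, 103.9 and 110.7 CPM with shIrf3, or -2.46 ± 0.19 on the log2 scale (SE, edgeR adjusted p = 6.49e-05). With LPS in both groups it was -2.27 (edgeR adjusted p = 6.16e-05). The gene model therefore fell both in the libraries labelled as overexpressing Irf3 and in those labelled as depleted of it.

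The fallen gene model uc009saj.1, at chr9:119057161-119066211 on the minus strand with 12 exons and 1669 bases, went from 7.27, 9.85 and 9.06 CPM in the EGFP libraries to 1.35, 1.25 and 1.10 CPM in the Irf3_2D libraries. At 26 to 44 reads the Irf3_2D values rest on few counts. Its log2 fold change was -2.82 ± 0.21 (SE, edgeR adjusted p = 0.00173), and with shIrf3 against shLuc it was -0.82 (edgeR adjusted p = 0.0537), which did not pass. The calls of uc009kic.1 and uc009saj.1, which shared the smallest adjusted p, held under every alternative run, each left-out library included.

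**Figure D2:**
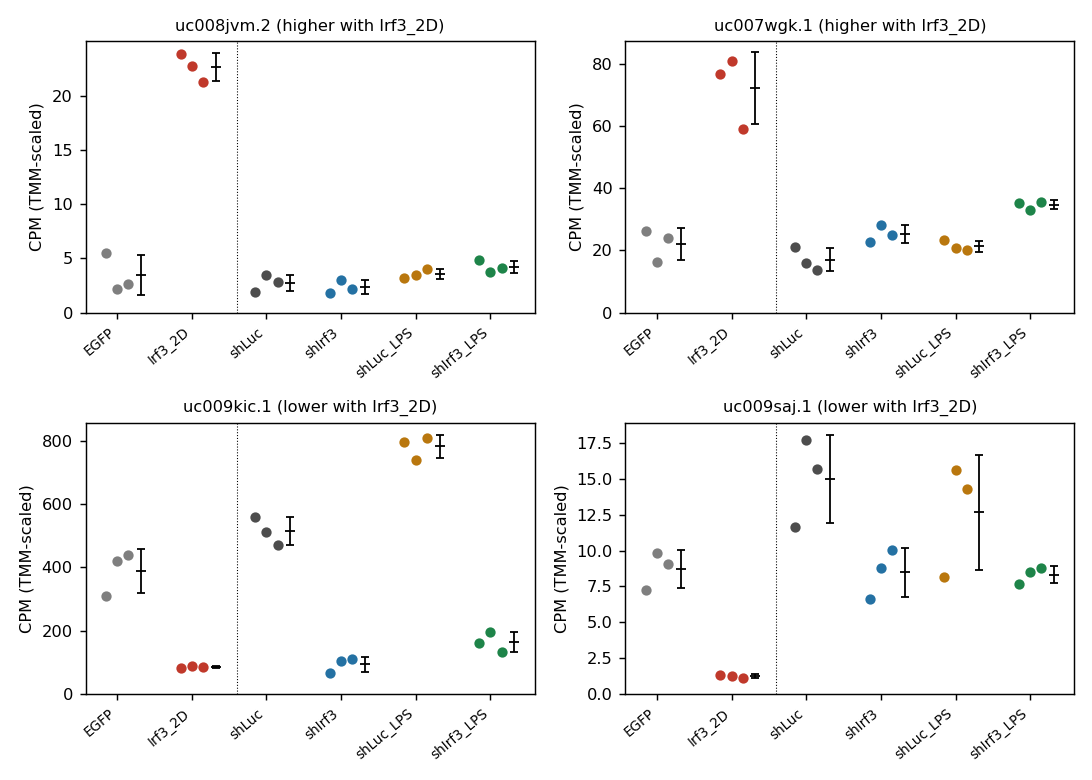
CPM (y axis, TMM-scaled, linear and starting at 0) of the 4 gene models described in full, in each library of the 6 groups (x axis). Points are libraries and bars the mean ± SD of 3, and the dotted line parts the overexpression arm from the knockdown and LPS arm, which were scaled separately. The Irf3_2D and EGFP points do not overlap in any panel, which was a condition for choosing these gene models. The gene model uc009kic.1 lies between 66.1 and 110.7 CPM with shIrf3 against 470.8 to 560.3 CPM with shLuc.

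With all 6 libraries, most of the risen gene models lay close to another risen one. Gene models called in the same direction with gaps of at most 100 kb were joined into regions, and 60 of the 113 risen gene models (53.1%) fell into 19 regions of 2 to 7. Of 308 tested gene models within 100 kb of a risen one, 60 had themselves risen (19.5%, against 0.811% of all tested). The fallen gene models formed 4 pairs that held 8 of the 89 (8.99%), and 8 of 353 gene models within 100 kb of a fallen one had fallen (2.27%, against 0.639%). Neighbouring gene models can overlap and share reads, and families of near-identical copies are often neighbours, so neighbours are not independent measurements. Without Irf3_2D replicate 2 the share was 6.06% of 1832 neighbours on the side that rose, against 3.32%, and 5.98% of 1957 on the side that fell, against 3.85%. The regions then held 23.5% of the risen and 21.4% of the fallen gene models, so the difference between the directions was not seen without that library. On the side that rose, without EGFP replicate 1 it was 20.04% of 494, against 1.20%. Left-out libraries that lowered the number of calls also lowered the number with a called neighbour, which was 25 without Irf3_2D replicate 3 and 0 without Irf3_2D replicate 1, EGFP replicate 2 or EGFP replicate 3.

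Chromosome 1 held both regions with 7 risen gene models. In chr1:85022921-85339151 all 7 tested gene models rose, by log2 fold changes of 1.596 to 2.23. The spans of all 7 were linked in a chain of overlaps, so their reads may not be separate. Their summed level was 26.0, 12.7 and 13.6 CPM in the EGFP libraries and 69.8, 77.4 and 63.8 CPM in the Irf3_2D libraries. In chr1:175603811-175912975 all 7 tested gene models rose by 1.44 to 2.24, from sums of 263, 126 and 141 CPM to 714, 750 and 560 CPM. EGFP replicate 1 was the highest EGFP library in both, yet stayed well below the lowest Irf3_2D library. Without Irf3_2D replicate 2, 6 of the 7 and 4 of the 7 were still called, and without EGFP replicate 1 all were. Chromosome 1 in all held 21 of the 113 risen gene models (18.6%), against 5.93% of those tested, but 28 of the 473 called without Irf3_2D replicate 2 (5.92%).

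The other large regions lay on chromosomes 18, 19 and 7. In chr18:60371731-60602911 all 5 tested gene models rose by 1.63 to 2.52, from sums of 274, 106 and 121 CPM to 777, 989 and 664 CPM. In chr19:34625184-34736909 4 of 6 gene models rose by 1.71 to 3.18 and the other 2 also had positive log2 fold changes. The sums over all 6 went from 476, 134 and 140 CPM to 2299, 2881 and 1969 CPM, the highest of any region listed here. In chr7:111392971-111683875 4 of 6 rose by 1.37 to 2.44, and the sums over all 6 went from 223, 119 and 109 CPM to 572, 581 and 479 CPM. Irf3_2D replicate 2 was the highest library in each of these 3 regions. Without it 2, 2 and 3 of the gene models tested in these regions were called, and without EGFP replicate 1 it was 5, 6 and 4.

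Regions with 3 risen gene models were chr1:87473475-87606023, chr11:48798831-48948889, chr11:83251196-83344020, chr3:142159898-142300972 and chr5:105644718-105775491. Their log2 fold changes ran from 0.85 to 3.85, both in the second region of chromosome 11. In the first region of chromosome 11 the 3 lay within a narrow range, from 2.197 to 2.55. The pair with the steepest rise, chr12:27127608-27164702, went by 3.77 and 4.57 on the log2 scale, from summed levels of 14.4, 2.23 and 2.38 CPM to 143.8, 90.4 and 132.2 CPM. In that pair EGFP replicate 1 again stood above the other EGFP libraries, and 0 of the 2 were called without Irf3_2D replicate 2. The 4 fallen pairs were chr1:78493609-78704318, chr19:4135423-4145740, chr6:115084920-115232644 and chr7:20256928-20278007, with log2 fold changes from -1.91 to -0.70.

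**Figure D3:**
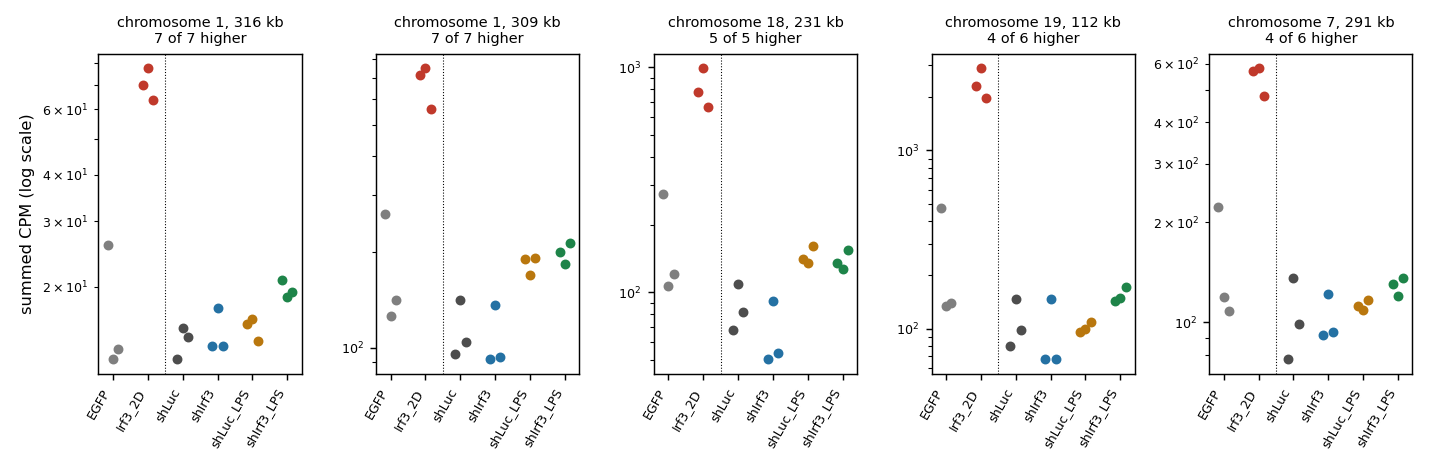
Summed CPM of all gene models tested in each arm, called or not (y axis, log scale), in the 5 regions with 4 or more gene models higher with Irf3_2D, for each library of the 6 groups (x axis). Points are libraries, and the dotted line parts the arms, which were scaled separately. In every region the 3 Irf3_2D libraries lie above all 3 EGFP libraries, and EGFP replicate 1 lies above the other EGFP libraries.

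With all 6 libraries, the risen and fallen gene models differed in exon number and in exons listed on both strands. The risen ones had a median of 7 exons and 3187 exonic bases, the fallen ones 9 exons and 2821 bases, and all tested 9 exons and 3356 bases. Only 2 of the 113 (1.77%) and 1 of the 89 (1.12%) had a single exon, against 4.64% of all tested. Exons listed on both strands, where reads of overlapping genes cannot be told apart because the library kit does not mark strand, occurred in 6 risen (5.31%) and 13 fallen gene models (14.6%), against 9.32% of all tested. None of these differences was tested. The 2 differences between directions were not seen among the 398 risen and 458 fallen gene models called only without Irf3_2D replicate 2. Those had a median of 9 exons in both directions, and 10.3% and 10.5% had exons on both strands. A single exon occurred in 4.27% and 3.49% of them. Chromosomes 7, 8 and 19 held 12, 11 and 9 of the 89 fallen gene models (13.5%, 12.4% and 10.1%, against 7.59%, 5.38% and 3.51% of those tested). These chromosomes held 8.39%, 7.12% and 4.01% of the ones that fell without Irf3_2D replicate 2. With all 6 libraries 0 of the 7 chromosome M gene models were called, and 0 were with any library left out.

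The fallen gene models were next read in the shIrf3 and shLuc libraries, which share no library with the overexpression arm. In the knockdown without LPS 585 of 14970 gene models were lower (3.91%) and 696 higher (4.65%). All 89 fallen gene models were tested there, and 49 of them were lower with shIrf3 (55.1%) and 1 was higher. The 49 make up 8.38% of the 585. The log2 fold change of the knockdown was negative for 82 of the 89, with a median of -0.53 against -0.02 over all gene models. With LPS in both groups 3.31% of gene models were lower with shIrf3, and 44 of the 89 were (49.4%, or 8.89% of the 495), 2 were higher and 83 were negative. Called lower in all 3 comparisons were 41 gene models, and 37 of the 89 were called lower in the overexpression arm but in neither knockdown comparison. The log2 fold changes of these 37 with shIrf3 had a median of -0.29 without LPS, from -0.86 to 1.49. With LPS in both groups the median was -0.21.

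For the 49 gene models lower in both arms, the median log2 fold change was -1.31 with Irf3_2D and -0.79 with shIrf3. Their median level went from 34.4 CPM with EGFP to 11.99 CPM with Irf3_2D, and from 42.9 CPM with shLuc to 18.5 CPM with shIrf3. At least 2-fold falls in both arms were seen for 18 of them. With LPS in the shLuc cells 11 of the 49 were higher and 5 lower, against 4.27% and 4.45% of all gene models, and their median log2 fold change was 0.10. One fallen pair, chr6:115084920-115232644, belongs here with both gene models. Its summed level was 88.2, 137.8 and 124.3 CPM with EGFP and 47.7, 63.1 and 50.0 CPM with Irf3_2D, then 86.9, 106.3 and 102.7 CPM with shLuc and 59.4, 59.6 and 56.7 CPM with shIrf3. Without Irf3_2D replicate 2, 157 of 547 fallen gene models were also lower with shIrf3 (28.7%) and without EGFP replicate 1 it was 61 of 104 (58.7%). It was 7 without Irf3_2D replicate 1, 11 without Irf3_2D replicate 3, 4 without EGFP replicate 2 and 3 without EGFP replicate 3, where few gene models were called in all.

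For the risen gene models the shares called in the knockdown lay closer to the background. Of the 113, 106 were tested in the other arm, and with shIrf3 4 were higher (3.77%, against 4.65%) and 7 lower (6.60%, against 3.91%), with a median log2 fold change of -0.07. With LPS in both groups 11 were higher with shIrf3 (10.4%, against 4.90%) and 1 lower. Without Irf3_2D replicate 2, 37 of 462 risen gene models were higher with shIrf3 (8.01%) and 15 lower (3.25%), and with LPS in both groups 56 were higher (12.1%) and 11 lower (2.38%). In chr19:34625184-34736909 the summed level was 79.5, 146 and 98.0 CPM with shLuc and 67.8, 147 and 67.4 CPM with shIrf3, so that the groups overlapped and replicate 2 was the highest library in both. With LPS in both groups the sums did not overlap, at 95.87, 99.95 and 109.0 CPM with shLuc and 142.4, 148.6 and 171.6 CPM with shIrf3. Of the 4 risen gene models there, 1 was then called higher with shIrf3 and 0 lower.

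**Figure D4:**
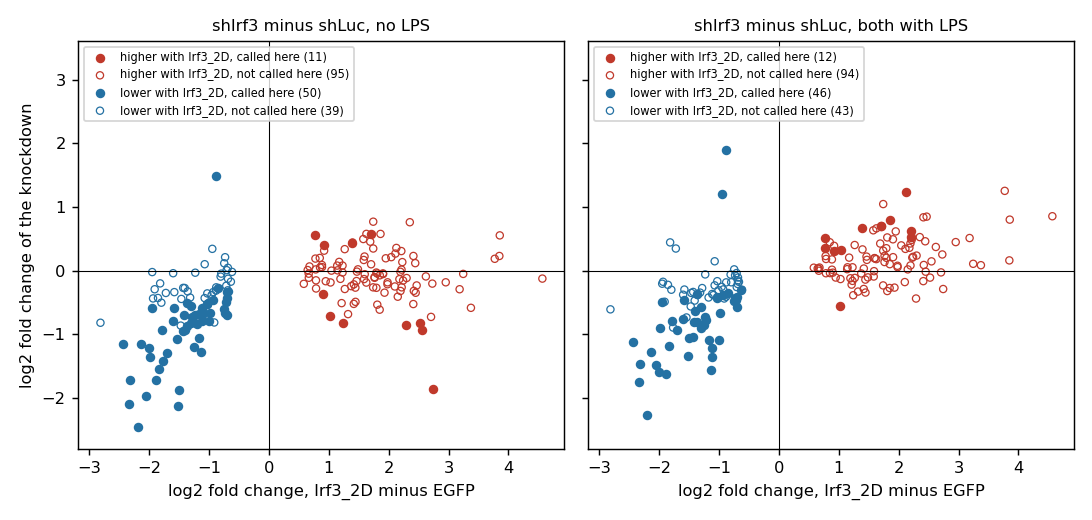
Log2 fold change of shIrf3 against shLuc (y axis) plotted against that of Irf3_2D against EGFP (x axis) for the 106 higher and 89 lower gene models tested in both arms, without LPS on the left and with LPS in both groups on the right. Each point is a gene model, and filled points passed the edgeR test in the knockdown in either direction. On the left 82 of the 89 gene models lower with Irf3_2D lie below 0, while the risen ones lie on both sides of 0.

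LPS, a bacterial cell wall component, activates Toll-like receptor 4, which can signal to IRF3. In the shLuc cells 4.27% of gene models were higher with LPS, and of the risen gene models 21 of 106 were (19.8%, or 3.29% of the 639), while 6 were lower (5.66%, against 4.45% of all) and 76 were positive. Their median log2 fold change with LPS was 0.20, against -0.01 over all gene models and 1.76 for all 113 with Irf3_2D. The 21 had medians of 1.58 with Irf3_2D and 0.84 with LPS, and 12 of them lay in a region. In chr5:105644718-105775491 all 3 gene models were higher with LPS and 2 were lower with shIrf3, and in chr1:175603811-175912975 4 of 7 were higher with LPS, from 95.7, 141 and 104 CPM with shLuc to 190, 169 and 191 CPM. In chr1:85022921-85339151 and chr19:34625184-34736909 none of the risen gene models was. Fallen gene models were also higher with LPS in 16 of 89 cases (17.98%, against 4.27% of all) and lower in 7, and without Irf3_2D replicate 2 it was 69 of 547 (12.6%) and 45 (8.23%).

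The count of 21 moved with single libraries of both arms. Without Irf3_2D replicate 2, 38 of 462 risen gene models were higher with LPS (8.23%) and 39 lower (8.44%). Their log2 fold changes had a median of -0.04, so the excess of higher over lower calls was not seen. The count was 33 of 164 (20.1%) without EGFP replicate 1, 10 without Irf3_2D replicate 3 and 0 without Irf3_2D replicate 1, EGFP replicate 2 or EGFP replicate 3. It was 36 without shLuc replicate 2 and 13 without the second shLuc library with LPS. Chromosome M held 14.2%, 2.88% and 5.19% of the counts in shLuc replicates 1, 2 and 3 and 4.21% to 4.52% in shLuc with LPS, and its part in these counts was not tested. The labels give the 6 days of LPS for the knockdown cells and do not say whether cells without LPS were kept as long, so the effects of LPS and of longer culture cannot be told apart.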

How the data were processed

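The labels' protocols describe libraries from 70 ng of total RNA, depleted of ribosomal RNA and made with a TruSeq v2 kit without strand information. The submitters' processing notes name build mm9 and the tools TopHat2 2.0.14, featureCounts 1.4.6, bcl2fastq 2.17.1.14, SAMtools 0.1.19, Picard 2.2.4 and edgeR, whose settings the sources used here do not give. The authors deposited whole-number read counts for each gene model, without normalization, and exons on both strands are listed for 1497 of the 27473. Groups came from the sample titles, and 0 per-sample columns were left unused.

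Counts were tested in edgeR 4.0.16 (R 4.3.3) with filterByExpr, TMM factors, glmQLFit with robust estimation and glmQLFTest, with Benjamini-Hochberg adjustment over every gene model in the fit. Calls have an adjusted p under 0.05. The 6 libraries of the overexpression arm and the 12 others were fitted separately, with a biological coefficient of variation of 0.171 and 0.0910. Standard errors were taken as the absolute log2 fold change over the root of the F statistic, and log2 CPM used a prior count of 2. CPM was scaled within each arm, so levels are not compared across arms. The pairs of libraries within both groups of the overexpression arm all differed beyond sampling noise, over gene models that had 20 or more counts between them. On simulated counts for this comparison (13795 gene models, 200 changed) the test recovered 8.96% of 1.5-fold, 70.1% of 2-fold and 97.0% of 4-fold changes, and 10 of 127 calls (7.87%) were false. The simulation held no departure shared by many gene models of a library, so these shares need not hold for the real libraries.

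Gene models named in full are the 2 per direction with the smallest adjusted p among those called with and without Irf3_2D replicate 2, at 5 CPM or more in the higher group and without overlap of the groups. The gene lists and cell type markers need symbols and could not be applied, and no sequence is given. The comparison, members and lists were chosen with earlier results of these data known, and regions and the readings without EGFP replicate 1 and of the knockdown under LPS were added after the data were seen. Alternatives were RLE factors, library totals alone, DESeq2 1.42.0, voom from limma 3.58.1, a minimum of 1 CPM in 3 libraries, no low-count filter, all 18 libraries in one fit, only the 6 libraries compared, no chromosome M, the replicate number as a block and each library left out.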

Additional observations from a re-analysis of the deposited data

How the results depend on the processing

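With all 6 libraries, 113 gene models were higher and 89 lower. DESeq2 called 236 and 245, edgeR with all 18 libraries in one fit called 464 and 478, and without the low-count filter 139 were lower. Under the other alternatives that kept all 6 libraries the counts stayed within 1.5 times the main ones, for 7 of 9 settings on the side that rose and 6 of 9 on the side that fell. Leaving out each library in turn gave 0 to 473 higher and 5 to 548 lower. The 60 risen gene models with a risen neighbour within 100 kb became 118 with DESeq2, 192 with all 18 libraries and 91 with limma-voom, and 0 to 111 with a library left out. The 49 gene models lower in both arms became 118 with DESeq2 and 3 to 157 with a library left out, and the 44 lower with Irf3_2D and with the knockdown under LPS became 114 and 3 to 147. The latter were 27 to 28 without shIrf3 with LPS replicate 1 or 3, or shLuc with LPS replicate 2 or 3, and 157 and 147 are the values without Irf3_2D replicate 2. The 21 higher with Irf3_2D and with LPS became 49 with DESeq2, 13 with only the 6 libraries compared and 0 to 38 with a library left out. The cause of these moves was not tested. The simulated counts were drawn for each gene model on its own, with no departure of a whole library like that of Irf3_2D replicate 2. Under that simpler spread, most 2-fold changes and few 1.5-fold changes were called at this depth and number of libraries.

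The titles number the replicates 1 to 3 in both groups. Same-numbered libraries deviated from their group means with correlations of 0.297, -0.067 and -0.258, and Irf3_2D replicate 2 was closest to EGFP replicate 3 (0.369), so the numbers were not taken as pairs. With the replicate block 140 gene models were higher and 96 lower, and 34 were higher with Irf3_2D and with LPS.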

Other observations

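Over all tested gene models Irf3_2D replicate 2 was the highest of its group at 43.7% and the lowest at 41.9%. Large departures in it alone were mostly downward, as they were in each EGFP library and in Irf3_2D replicate 3. At 134 gene models it lay at least 2-fold below each of the other 5 libraries, and at 3 it lay at least 2-fold above them. Each of the other 5 libraries was as far below the rest at 2 to 36 gene models and as far above at 0 to 7. Most of the 134 were weakly expressed, with a median of 0.31 CPM in Irf3_2D replicate 2 and 1.11 CPM in the others. The 134 were spread over 21 chromosomes, with 16 on chromosome 11 and 12 on chromosome 7, and had a median exonic length of 2358 bases against 3356 for all tested. At 33 of them the other libraries held at least 10 CPM. None of the 134 was among the 113 risen or 89 fallen gene models, which follows largely from how the 134 were chosen. Without Irf3_2D replicate 2, 5 of the 134 were called higher and 1 lower, where 3.32% and 3.85% of all tested were.

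Without Irf3_2D replicate 2 the region with the most risen gene models was chr17:36053856-36299319, where 8 of 15 tested gene models were higher, by log2 fold changes of 0.48 to 1.403. With all 6 libraries 1 of the 8 was called. On the side that fell it was chr11:72812647-73168201, with 6 of 14.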
